A study of Mus musculus with 30 samples.

Results

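The mouse Gadd45 family, the growth arrest and DNA damage inducible genes Gadd45a, Gadd45b and Gadd45g, was followed across a study of gene expression under stress in mouse embryonic fibroblasts (MEFs). Its members were all probes carrying 1 of these 3 gene names, which gave 4 of the 41174 gene probes of the array and 3 of its 21689 named genes: 1 probe each for Gadd45a and Gadd45g, and 2 for Gadd45b. Total RNA was hybridised to 30 two-colour arrays in 15 groups of 2, which the methods describe as 2 independent experiments, and each treated sample (Cy5) was set against the same pool of 2 untreated wild type MEF samples (Cy3). Wild type MEFs received anisomycin at 25 ng/ml for 45 min or TNFα, an inflammatory cytokine, at 100 ng/ml for 45 min. Others received an osmostress of 100 mM NaCl lasting 45 min, 2 h or 8 h. Each stress was given with and without SB203580, a p38 SAPK inhibitor, which was also given alone. Anisomycin inhibits protein synthesis, but the paper states that this dose does not block it fully. The stresses were chosen as activators of p38 SAPK. p38α-/- MEFs, which lack the kinase encoded by Mapk14, were studied without stress and after the same doses of anisomycin and TNFα (45 min) and of NaCl (2 h). The SB203580 dose was 10 µM for 30 min before the stress in the protocol but 10 mM for 2 h in sample titles. Both genotypes were immortalised lines grown exponentially, and line and genotype cannot be told apart. In such bulk RNA, fewer responding cells and less RNA per cell cannot be told apart either.

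Gadd45 proteins are small acidic nuclear proteins without enzyme activity of their own. They bind the replication clamp Pcna, the cell cycle inhibitor p21 and the mitotic kinase Cdk1, and they can activate Map3k4, a kinase upstream of p38 SAPK and JNK, so the family stands both downstream and upstream of stress kinases. Gadd45a is a classical p53 target induced by DNA damage, Gadd45b is an early NF-kappaB and TGF-beta target that restrains cell death after TNFα in many cell types, and Gadd45g is a cytokine responsive member tied to differentiation and growth arrest.

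The 3 genes lie on different chromosomes (GRCm38.p6), Gadd45a at chr6:67035096-67037407 on the minus strand, Gadd45b at chr10:80930091-80932204 on the plus strand and Gadd45g at chr13:51846675-51848475 on the plus strand. The 150 bases before each annotated start (RefSeq) are shown because the 3 genes are compared under the same stresses. They are written 5′ to 3′ on the gene's strand, with every match to a searched motif in capitals.
Gadd45a, chr6:67037408-67037557: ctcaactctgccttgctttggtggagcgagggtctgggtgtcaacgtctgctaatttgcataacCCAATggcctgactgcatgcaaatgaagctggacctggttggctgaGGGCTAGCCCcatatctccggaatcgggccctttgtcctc
Gadd45b, chr10:80929941-80930090: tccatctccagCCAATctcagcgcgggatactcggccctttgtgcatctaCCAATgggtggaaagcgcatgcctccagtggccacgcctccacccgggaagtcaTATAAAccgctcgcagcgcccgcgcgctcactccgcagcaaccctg
Gadd45g, chr13:51846525-51846674: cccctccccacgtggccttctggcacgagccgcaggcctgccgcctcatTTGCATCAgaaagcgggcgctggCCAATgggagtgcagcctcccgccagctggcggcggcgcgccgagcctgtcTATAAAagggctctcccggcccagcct
Each window from 250 bases before to 50 bases after the start was searched on both strands for 8 motifs. CCAAT was found in all 3 members, with 2 matches in Gadd45b, and in 37.4% of the 32851 promoters of the same length. TATAAA was found in Gadd45b at -46 to -41 and in Gadd45g at -27 to -22, in Gadd45a nowhere, and in 13.6% of promoters. Gadd45g alone among the members held TGATGCAA, the element shared by C/EBP and ATF factors, on the opposite strand at -101 to -94, which 0.895% of promoters held. Gadd45a alone held a match to the p53 decamer consensus, at -40 to -31, which 8.36% of promoters held. No member's window held TGACGTCA (1.79% of promoters), TGANTCA (7.81%), GCGGGGGCG (2.91%) or the NF-kappaB consensus (4.51%).

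**Figure D1:**
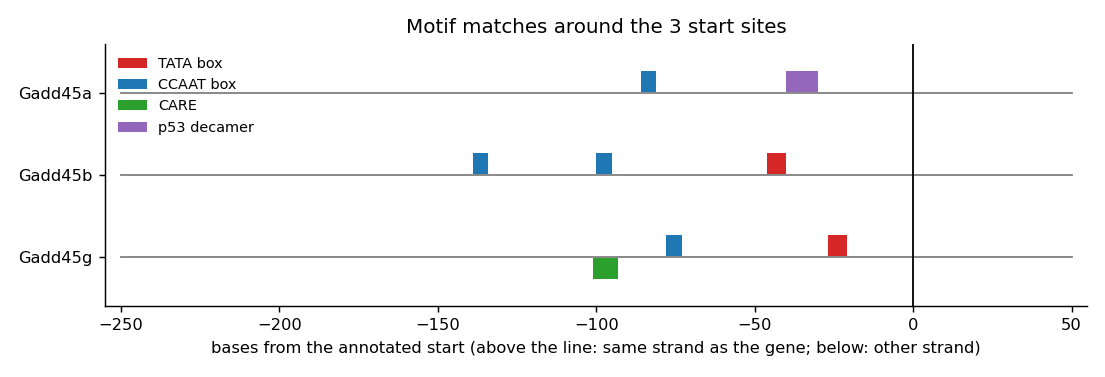
Matches to the searched motifs (coloured boxes) in the window from 250 bases before to 50 bases after the annotated start of each Gadd45 gene (0 on the horizontal axis), with matches on the gene's own strand above the line and on the other strand below it. Gadd45b and Gadd45g hold a TATA box match near the start and Gadd45a holds none.

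All values below are log2 ratios of treated over pool, so that 1 is a 2-fold higher signal, and errors are SDs over 2 arrays. A gene was called when its p-value from limma, adjusted over all genes tested in that comparison (Benjamini-Hochberg), was under 0.05. The pool counts as 1 control sample, so tests against it leave out its own spread. Every Gadd45 spot was well above background in both channels on all 30 arrays, and none was saturated. The scanner software marked spots as outliers, mostly for an uneven Cy3 spot, on 9 of 30 arrays for Gadd45a, on 20 of 30 for Gadd45g, and on 1 and 0 of 30 for the Gadd45b probes A_52_P1197913 and A_51_P500984. With marked spots left out, Gadd45b was measured on both arrays in all 15 groups, Gadd45a in 6 and Gadd45g in 0. Results for Gadd45g, and for Gadd45a in the other 9 groups, therefore rest on a fit that kept marked spots.

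Across the series, outlier spots made up 6.78% to 44.8% of an array, highest on replicate 2 of NaCl at 45 min. Spots well above background in Cy5 made up 81.1% to 96.8%, lowest on replicate 2 of p38α-/- MEFs after NaCl. Arrays fell into 4 scan days, with all wild type replicate 1 arrays on the first, all wild type replicate 2 and p38α-/- replicate 1 arrays on the second, and p38α-/- replicate 2 arrays on 2 others. Mapk14 log2 ratios were -2.24 to -0.94 on 6 p38α-/- arrays and 0.05 to 1.31 on 16 wild type arrays. Markers of fibroblasts were well above background on all 30 arrays for 10 of 10 genes, and so were those of blood for 5 of 5, of epithelium for 2 of 2 and of endothelium for 3 of 4, so this criterion does not separate the labelled cell type from others.

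**Figure D2:**
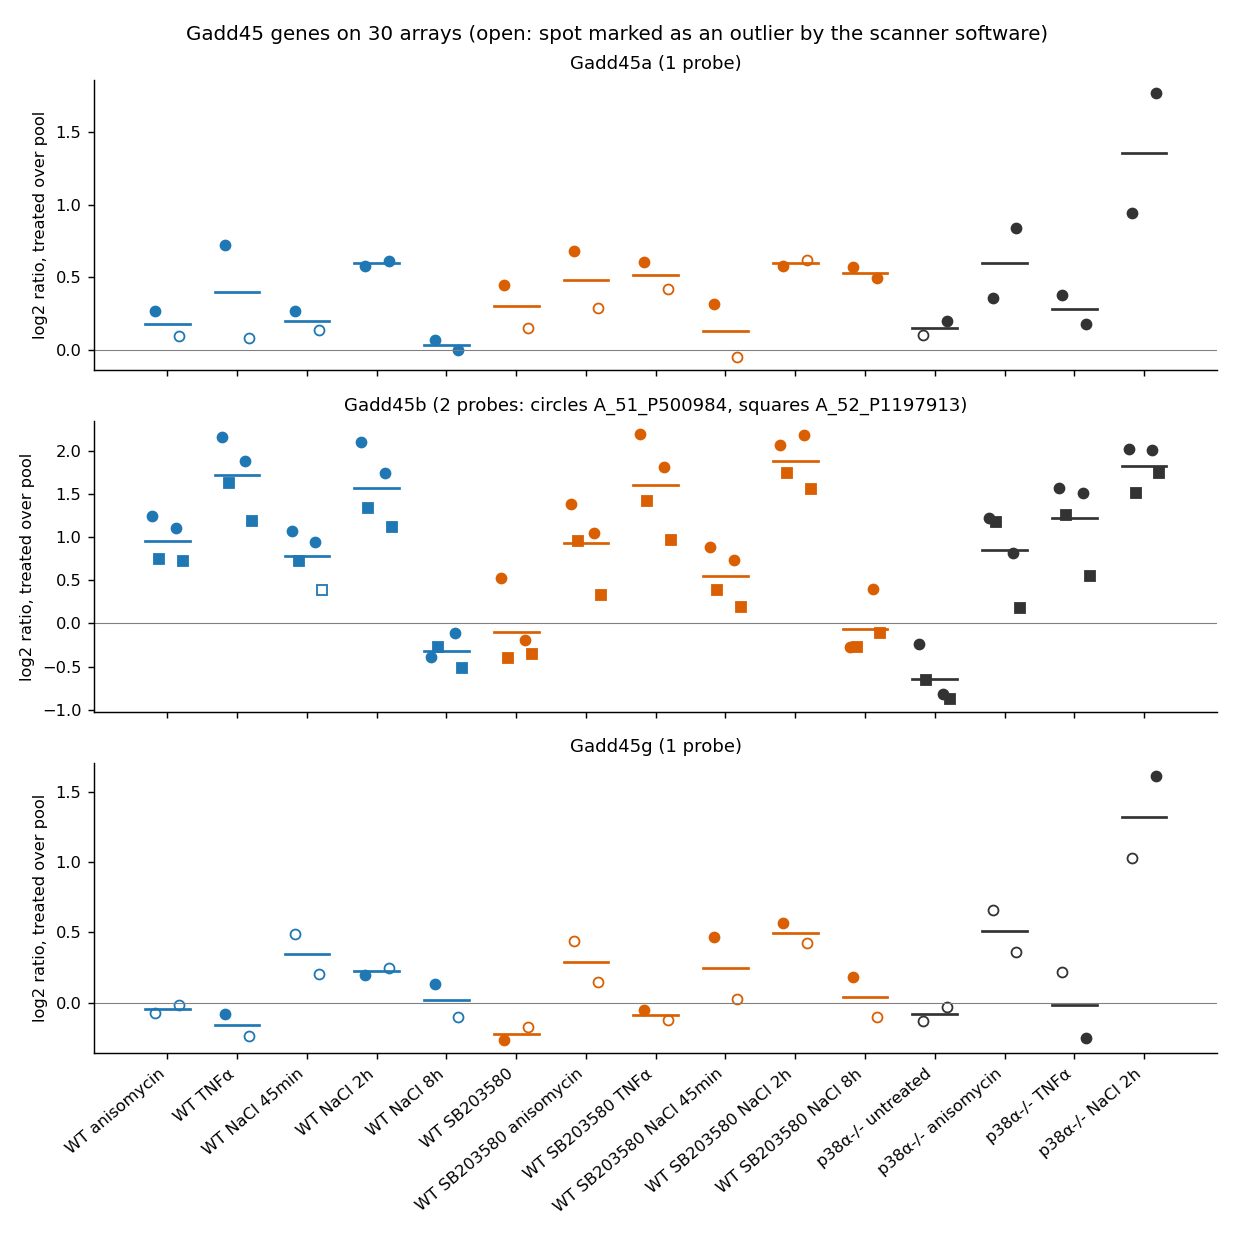
Log2 ratio of treated over pool (vertical axis) for each Gadd45 probe on each of the 30 arrays, by group (horizontal axis); replicate 1 is to the left of replicate 2, open symbols are spots marked as outliers, bars are group means with all spots, and colours separate wild type (blue), SB203580 (orange) and p38α-/- (black). Group means of Gadd45b lie between 0.55 and 1.89 under every stress up to 2 h and near or below 0 at 8 h of NaCl, with SB203580 alone and in untreated p38α-/- MEFs, and Gadd45a and Gadd45g are highest in p38α-/- MEFs after NaCl.

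Gadd45b was the member called up over the pool after anisomycin, TNFα and NaCl for 2 h in wild type MEFs. The same held with SB203580 and without p38α. After NaCl for 45 min, which p38α-/- MEFs did not receive, it was called up with and without SB203580. Over SB203580 alone, however, Gadd45b was not called after anisomycin or NaCl for 45 min with the inhibitor. On the replicate 1 and replicate 2 arrays of wild type MEFs its log2 ratios were 1.00 and 0.92 after anisomycin, 1.90 and 1.54 after TNFα, 0.90 and 0.95 after NaCl for 45 min and 1.72 and 1.43 after NaCl for 2 h. All these arrays were well above 0, and TNFα and NaCl at 2 h lay above anisomycin and NaCl at 45 min on both arrays. The means of 1.72 ± 0.25 for TNFα (3.29-fold, adjusted p = 4.4e-06) and 1.58 ± 0.20 for NaCl at 2 h (2.98-fold, adjusted p = 1.19e-05) were calls among 11.0% and 9.92% of genes called in these comparisons. Anisomycin gave 0.96 ± 0.06 (1.94-fold, adjusted p = 0.00131, 12.0% of genes called) and NaCl at 45 min gave 0.92 ± 0.03 (1.90-fold, adjusted p = 0.0021, 9.88% of genes called). At 45 min, replicate 2 rests on 1 probe, and with the marked spot kept its mean was 0.78 ± 0.17, a call lost without replicate 1 (adjusted p = 0.151). The anisomycin call was lost without replicate 1 (adjusted p = 0.0727).

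The order among the 3 stresses at 45 min was not settled. TNFα exceeded NaCl by 0.79 (adjusted p = 0.323) and anisomycin by 0.76 (adjusted p = 0.542), and anisomycin exceeded NaCl by 0.03 with a 95% interval of -0.46 to 0.52 (0.17, -0.32 to 0.66, with the marked spot kept). With marked spots kept and the replicate number as a block, the first of these was called at 0.93 (adjusted p = 0.0281).

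SB203580 with the stresses up to 2 h left Gadd45b up-regulated over the pool, and NaCl for 8 h is given below. In the presence of the inhibitor its log2 ratios read 1.17 and 0.69 under anisomycin, 1.81 and 1.40 under TNFα, 0.64 and 0.46 under NaCl at 45 min and 1.91 and 1.87 at 2 h. Every one of these arrays was above 0, and both arrays of NaCl at 2 h stood above the other stresses listed. The means were 0.93 ± 0.34 (adjusted p = 0.00187, 11.7% of genes called), 1.60 ± 0.29 (adjusted p = 1.59e-05, 9.52%), 0.55 ± 0.13 (adjusted p = 0.0293, 16.8%) and 1.89 ± 0.02 (adjusted p = 1.89e-06, 17.1%). The call with anisomycin was lost without replicate 1 (adjusted p = 0.118), and that with NaCl for 45 min without either array (adjusted p = 0.259 and 0.165) or on probe A_52_P1197913 alone (adjusted p = 0.352). With SB203580 alone the arrays read 0.07 and -0.28, a mean of -0.10 ± 0.24 that was not called (adjusted p = 0.675, 26.6% of genes called).

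In p38α-/- MEFs Gadd45b started lower and was up-regulated by the same stresses. Untreated arrays read -0.45 and -0.85, anisomycin 1.20 and 0.50, TNFα 1.42 and 1.03, and NaCl for 2 h 1.76 and 1.88. Both untreated arrays lay below 0 and all stressed arrays above it. The untreated mean of -0.65 ± 0.28 was called (adjusted p = 0.013, 6.96% of genes called down), but not with the scan day as a term (-0.40, adjusted p = 0.0999), not on probe A_51_P500984 alone (adjusted p = 0.0542), and not without replicate 1 (adjusted p = 0.0705) or replicate 2 (adjusted p = 0.233). Over the pool, anisomycin gave 0.85 ± 0.49 (adjusted p = 0.00273, 12.4% of genes called; adjusted p = 0.148 without replicate 1), TNFα 1.22 ± 0.27 (adjusted p = 0.000141, 7.62%) and NaCl 1.82 ± 0.08 (adjusted p = 9.76e-07, 18.0%).

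Against the unstressed group of the same arm, far fewer genes were called and Gadd45b was among them in 5 of 8 comparisons. In p38α-/- MEFs, NaCl for 2 h raised it by 2.47 over untreated (5.54-fold, 95% interval 1.98 to 2.96, adjusted p = 2.75e-05, 1.08% of genes called) and TNFα by 1.87 (3.66-fold, adjusted p = 0.000475, 0.0780%). Anisomycin raised it by 1.49 (2.82-fold, adjusted p = 0.0128, 0.0847%), a call lost without untreated replicate 2 (adjusted p = 0.213) or anisomycin replicate 1 (adjusted p = 0.145), on probe A_52_P1197913 alone (adjusted p = 0.148) or with array weights (adjusted p = 0.0708). Over SB203580 alone, NaCl for 2 h with the inhibitor raised it by 1.99 (3.98-fold, adjusted p = 8.33e-05, 2.87%) and TNFα by 1.71 (3.26-fold, adjusted p = 0.00141, 0.0983%). Anisomycin (1.03, adjusted p = 0.339) and NaCl for 45 min (0.65, adjusted p = 0.534) with the inhibitor did not pass, and NaCl for 8 h differed from the inhibitor alone by 0.04 (95% interval -0.45 to 0.53).

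**Figure D3:**
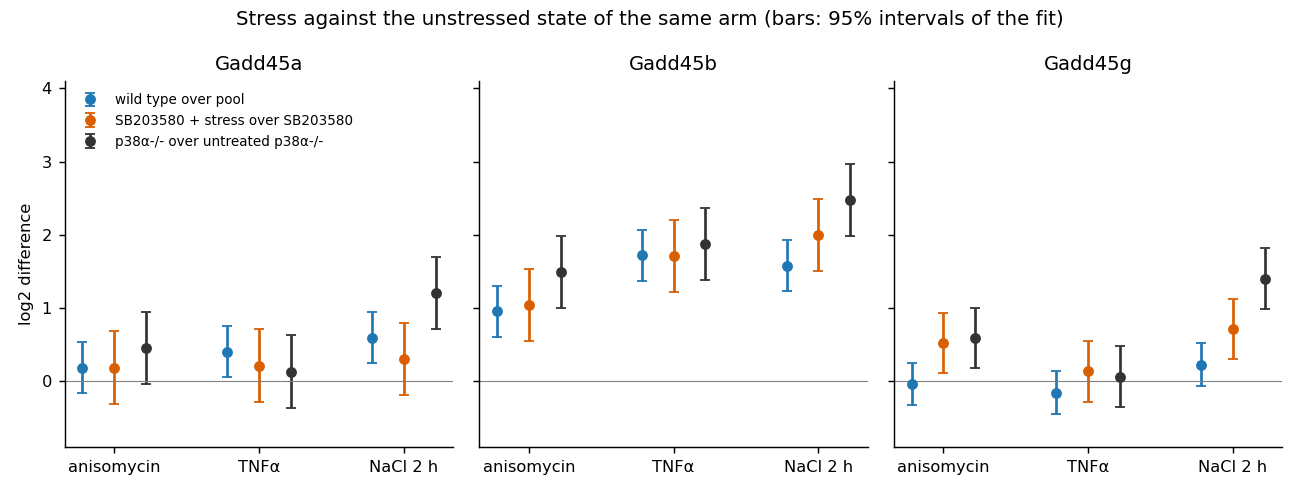
Log2 difference (vertical axis) between stressed and unstressed cells of the same arm for each gene, in wild type MEFs over the pool, in wild type MEFs with SB203580 over SB203580 alone, and in p38α-/- MEFs over untreated p38α-/- MEFs, with 95% intervals of the fit that kept marked spots. Gadd45b is above 0 in all 9 comparisons shown, and Gadd45a and Gadd45g reach 1.21 and 1.40 after NaCl in p38α-/- MEFs.

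Over the NaCl times Gadd45b was highest at 2 h and back at or below the pool by 8 h. At 8 h its log2 ratios were -0.33 and -0.32 in wild type MEFs and -0.27 and 0.14 with SB203580. The wild type arrays lay below 0 and close together, and the SB203580 arrays fell on either side of 0. Neither 8 h mean was called against the pool (-0.32 ± 0.01, adjusted p = 0.184, 22.2% of genes called; -0.07 ± 0.30, adjusted p = 0.83, 21.2%). From 2 h to 8 h Gadd45b dropped by 1.90 in wild type MEFs (95% interval -2.39 to -1.41, adjusted p = 7.64e-05, 7.81% of genes called) and by 1.96 with SB203580 (adjusted p = 8.22e-05, 7.32%). From 45 min to 8 h it dropped by 1.25 in wild type MEFs (adjusted p = 0.00239, 7.53%). With marked spots kept, this change was -1.23 to -1.11 over the alternative runs, with adjusted p up to 0.0545. It was -1.22 to -0.99 with single arrays left out, and the call did not hold in every such run. With SB203580 Gadd45b dropped by 0.61 from 45 min to 8 h, which was not called. Its increase from 45 min to 2 h was 1.34 with SB203580 (adjusted p = 0.026, 0.343%) and 0.65 without (adjusted p = 0.61). The former was lost when NaCl at 45 min replicate 2 (adjusted p = 0.274) or either 2 h array (adjusted p = 0.131 and 0.153) was left out.

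**Figure D4:**
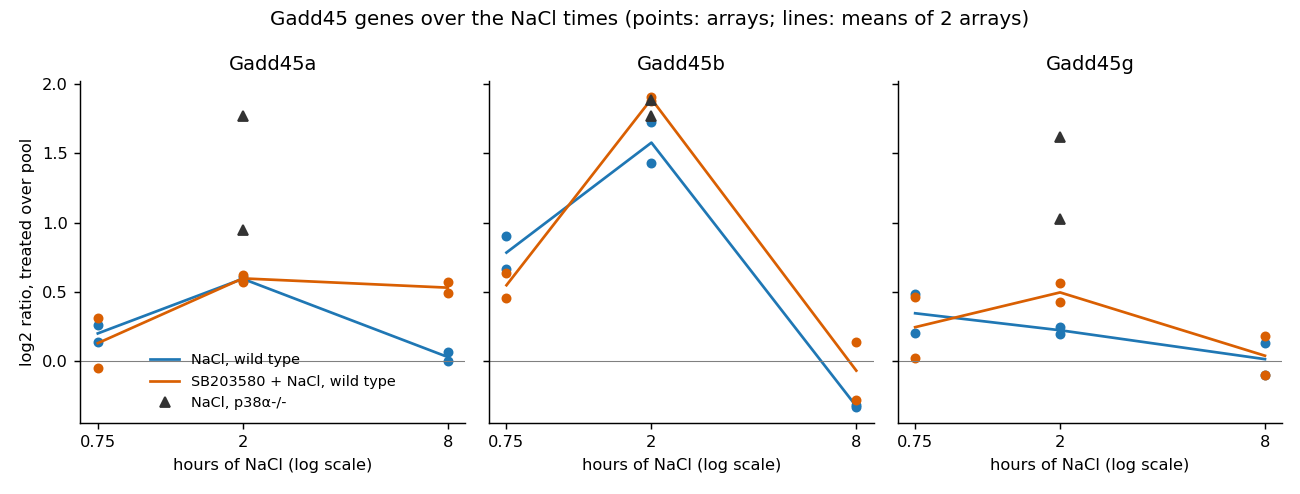
Log2 ratio of treated over pool (vertical axis) against hours of NaCl (log scale) for each Gadd45 gene in wild type MEFs with and without SB203580 (points are arrays with all spots, lines join means of 2 arrays), with p38α-/- MEFs at 2 h as triangles. Means of Gadd45b are 1.58 and 1.89 at 2 h and -0.32 and -0.07 at 8 h, and that of Gadd45a with SB203580 is 0.53 at 8 h.

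The 2 Gadd45b probes gave the same pattern at different heights. Probe A_51_P500984 read higher than A_52_P1197913 on 28 of 30 arrays, by a median of 0.51 (range -0.12 to 0.96), and the signs differed on 2 arrays, both with SB203580. After TNFα in wild type MEFs the first read 2.16 and 1.89 and the second 1.63 and 1.19, and after NaCl for 2 h they read 2.10 and 1.74 against 1.34 and 1.12. Across the 30 arrays, which share 1 pool, their values correlated with r = 0.956. The values given for Gadd45b are averages of both probes, except on replicate 2 of NaCl at 45 min with the marked spot left out, where A_51_P500984 stands alone.

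**Figure D5:**
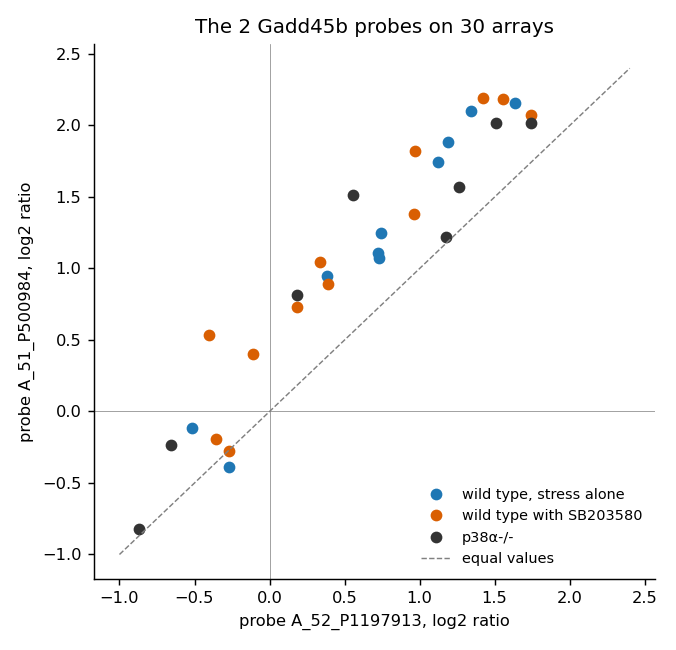
Log2 ratio of the 2 Gadd45b probes on the 30 arrays, A_52_P1197913 on the horizontal and A_51_P500984 on the vertical axis, with the line of equal values dashed. 28 of 30 arrays lie above that line.

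Gadd45a, with marked spots left out, was measured on both arrays in 6 groups and called against the pool in 1 of them, p38α-/- MEFs after NaCl for 2 h. Its arrays there read 0.94 and 1.77, a mean of 1.36 ± 0.58 (2.56-fold, adjusted p = 0.00111), where 18.0% of all genes were called. Over the pool comparisons 7.62% to 26.6% of genes were called, so 1 of 6 is near the share of all genes. In wild type MEFs it read 0.58 and 0.61 after NaCl for 2 h, a mean of 0.60 ± 0.02 (adjusted p = 0.0701). The knockout arrays were both above the wild type arrays but far apart from each other. With SB203580 and NaCl for 8 h it read 0.57 and 0.49 (mean 0.53 ± 0.06, adjusted p = 0.0656), against 0.03 ± 0.05 with NaCl for 8 h alone. In p38α-/- MEFs it read 0.36 and 0.84 after anisomycin (mean 0.60 ± 0.34, adjusted p = 0.0603) and 0.38 and 0.18 after TNFα (adjusted p = 0.434). The values near 0.6 in wild type MEFs after NaCl for 2 h, with SB203580 and NaCl for 8 h and in p38α-/- MEFs after anisomycin became calls with the replicate number as a block (adjusted p = 0.0379, 0.0368 and 0.0334). The last was 0.29 with the scan day as a term (adjusted p = 0.208), 0.84 without replicate 1 (adjusted p = 0.0694) and 0.36 without replicate 2 (adjusted p = 0.565).

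With marked spots kept, Gadd45a was called up against the pool in 7 of 15 groups, where between 13.0% and 41.4% of all genes were called in a comparison. These were NaCl for 2 h (adjusted p = 0.0174, 19.7% of genes called), SB203580 with anisomycin (0.48 ± 0.28, adjusted p = 0.0429, 23.0%), with TNFα (0.51 ± 0.13, adjusted p = 0.0381, 19.2%), with NaCl for 2 h (0.60 ± 0.03, adjusted p = 0.0136, 25.2%) and with NaCl for 8 h (adjusted p = 0.0229, 27.9%), and p38α-/- MEFs after anisomycin (adjusted p = 0.0151, 21.1%) and NaCl (adjusted p = 2.17e-05, 24.2%). All but the last were lost when 1 of their own arrays was left out, with adjusted p up to 0.188, 0.503, 0.369, 0.181, 0.216 and 0.425 in that order. After TNFα in wild type MEFs the arrays stood apart, at 0.72 and 0.08 with the second marked, and the mean of 0.40 ± 0.45 was not called (adjusted p = 0.0934; 0.0315 with the block). The rest were low, at 0.18 ± 0.12 after anisomycin, 0.20 ± 0.09 after NaCl for 45 min, 0.13 ± 0.26 after SB203580 and NaCl for 45 min, 0.30 ± 0.21 after SB203580 alone and 0.15 ± 0.07 in untreated p38α-/- MEFs.

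Gadd45g had at least 1 marked spot in every group, so all its values include marked spots. Its arrays read 1.03 (marked) and 1.61 in p38α-/- MEFs after NaCl for 2 h, against 0.20 and 0.25 (marked) in wild type MEFs. Both knockout arrays exceeded every other array of the series for this gene. The knockout mean of 1.32 ± 0.41 (2.50-fold) was called against the pool (adjusted p = 3.88e-06, 24.2% of genes called). The wild type mean of 0.22 ± 0.04 was not (adjusted p = 0.27, 19.7%). Also called were p38α-/- MEFs after anisomycin, at 0.66 and 0.36 with both marked (0.51 ± 0.21, adjusted p = 0.013, 21.1% of genes called). That call was lost without replicate 1, at 0.36. SB203580 with NaCl for 2 h was called at 0.57 and 0.43 with the second marked (0.50 ± 0.10, adjusted p = 0.0136, 25.2%). It was lost without either array. With marked spots kept, 13.0% to 41.4% of genes were called over the pool comparisons, so 3 of 15 is near the share of all genes. Anisomycin and TNFα in wild type MEFs left it at -0.04 ± 0.04 and -0.16 ± 0.11, the stresses under which Gadd45b was at 0.96 and 1.72. NaCl for 45 min gave 0.49 and 0.21, both marked (0.35 ± 0.20, adjusted p = 0.0877). The remaining 8 groups lay between -0.22 ± 0.07 with SB203580 alone and 0.29 ± 0.21 with SB203580 and anisomycin, and none was called.

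Against untreated p38α-/- MEFs, NaCl for 2 h raised Gadd45g by 1.40 (2.64-fold, 95% interval 0.99 to 1.81, adjusted p = 0.00105) and Gadd45a by 1.21 (2.31-fold, 0.71 to 1.70, adjusted p = 0.013), among 1.24% of genes called. The Gadd45a call was lost without untreated replicate 1 (adjusted p = 0.13) or 2 (adjusted p = 0.0516) or NaCl replicate 2 (adjusted p = 0.37). Over SB203580 alone, NaCl for 2 h with the inhibitor gave 0.72 for Gadd45g (adjusted p = 0.0552; 0.0307 with the block) and 0.30 for Gadd45a (adjusted p = 0.521).

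SB203580 with a stress was compared with the stress alone to ask whether p38 SAPK activity was needed for the response. No Gadd45 gene was called by limma in any of the 5 stresses, in 6 comparisons with marked spots left out (0 at an unadjusted p under 0.05) or in 15 with them kept (1 at an unadjusted p under 0.05). Among all genes, 0 to 31 per stress were called with marked spots left out and 0 to 43 with them kept. The inhibitor shifted Gadd45b by -0.02 under anisomycin (95% interval -0.51 to 0.46), by -0.12 under TNFα (-0.60 to 0.37), and under NaCl by -0.38 at 45 min (-0.86 to 0.11; -0.24 with the marked spot kept, so that both probes enter on every array), 0.31 at 2 h (-0.17 to 0.80) and 0.26 at 8 h (-0.23 to 0.75). Each of these intervals includes 0. Gadd45a was highest relative to stress alone at 8 h of NaCl, by 0.50 (-0.07 to 1.07, adjusted p = 1), and Gadd45g with anisomycin, by 0.34 (-0.07 to 0.75).

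The same question was asked with the knockout. With marked spots left out, none of 4 measured comparisons of stressed p38α-/- with stressed wild type MEFs was called by limma, while 2 had an unadjusted p under 0.05. Gadd45a after NaCl for 2 h was higher by 0.76 in the knockout (95% interval 0.19 to 1.33, adjusted p = 0.284, 0.697% of genes called). Gadd45b after TNFα was lower (-0.49, adjusted p = 0.639), by -0.22 with the scan day as a term and -0.12 within the second scan day. Since p38α-/- TNFα replicate 2 was the only array of its scan day, these last values both rest on p38α-/- TNFα replicate 1. Gadd45b differed by -0.11 after anisomycin (-0.60 to 0.38) and 0.25 after NaCl (-0.24 to 0.74). The Gadd45a difference was 1.17 without p38α-/- NaCl replicate 1 (adjusted p = 0.0397), 0.35 without replicate 2 (adjusted p = 1) and 0.45 with the scan day as a term (adjusted p = 0.358).

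With marked spots kept, Gadd45g after NaCl for 2 h was higher in p38α-/- than in wild type MEFs by 1.10 (2.14-fold, 95% interval 0.69 to 1.51, adjusted p = 0.0075), 1.17% of genes being called. In the second scan day alone, which holds 1 array of each genotype, the difference was 0.78, but both of these spots were marked. The unmarked spots, at 1.61 in p38α-/- and 0.20 in wild type MEFs, came from different scan days. With the scan day as a term the difference was 1.11 (adjusted p = 0.00283). The call was lost without p38α-/- NaCl replicate 2 (0.80, adjusted p = 0.206) or wild type NaCl replicate 1 (1.07, adjusted p = 0.071). For Gadd45a the difference was 0.76 (adjusted p = 0.145; 0.0341 with the block), and 0.33 within the second scan day. Gadd45g also stood higher in the knockout after anisomycin, by 0.55 (adjusted p = 0.194), and by 0.14 after TNFα.

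The induction by NaCl for 2 h, each genotype over its own unstressed state, differed between p38α-/- and wild type MEFs for Gadd45g by 1.18 (95% interval 0.67 to 1.68, adjusted p = 0.019), 3.54% of genes being called. In that comparison the median of all genes stood at 0.07 (-0.03 with marked spots left out) and 669 genes were called up against 98 down, and the wild type unstressed state is the pool, without a spread of its own. The call was lost without wild type NaCl replicate 1 or 2 (adjusted p = 0.089 and 0.0528), untreated p38α-/- replicate 1 (0.187) or p38α-/- NaCl replicate 2 (0.189), and with array weights (0.0517). Gadd45b differed by 0.89 in the same direction (adjusted p = 0.216 with marked spots left out, 0.0815 with them kept, 0.0271 with them kept and the block). The untreated knockout stood at -0.65, and the stressed genotypes differed by 0.25. With marked spots left out, 0 of 8 such differences of the family were called by limma and 1 had an unadjusted p under 0.05. For NaCl that setting called 0 of 15939 genes, 2167 having an unadjusted p under 0.05.

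Ranked by mean over the 15 groups with marked spots kept, Gadd45b ran from SB203580 with NaCl for 2 h (1.89) through p38α-/- MEFs after NaCl (1.82), TNFα (1.72), SB203580 with TNFα (1.60) and NaCl for 2 h (1.58) to untreated p38α-/- MEFs (-0.65). The arrays of neighbouring groups overlapped in 8 of the 14 steps, all 4 steps among the first 5 groups included. For Gadd45a and Gadd45g 12 of 14 steps overlapped. In both genes p38α-/- MEFs after NaCl stood above the next group, p38α-/- MEFs after anisomycin, without overlap. The share of all genes with as many overlapping steps, or with such a gap below their highest group, is not given here. These counts therefore describe the members and do not set them apart from other genes. The median SD between the 2 arrays was 0.13 for Gadd45a, 0.24 for Gadd45b and 0.16 for Gadd45g.

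The genes whose group means followed a member most closely are given as a description over groups that share the pool. For Gadd45b over 15 groups and 10443 genes these were Smgc (r = 0.832), Cyln2 (0.806), Gga1 (0.795), F3 (0.795), the gene of tissue factor, and C330027I04Rik (0.785). With marked spots kept, over 21674 genes, they were Stmn3, Tex264, Tmod1, Aaas and Smgc (r = 0.857 to 0.831), so 1 of the 5 was in both. Gadd45g was followed by 6330417K15Rik (0.949), Bsn, Cidec, Cacna2d1 and Pcsk2 (0.903), and Gadd45a by Erbb3 (0.863), Trim45, Arl10b, Kcnh2 and AK129302 (0.849), with marked spots kept. Over 6 groups with marked spots left out, Gadd45a was followed by 8430436F23Rik (0.984), Rdh14, Olfr244, 1700086P04Rik and 4933435N07Rik (0.972). Between members r was 0.787 for Gadd45a with Gadd45g, 0.588 for Gadd45a with Gadd45b and 0.435 for Gadd45b with Gadd45g.

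Among known upstream regulators of the family, the factors called in wild type MEFs were all up. Of those measured, 2 of 8 were called up after anisomycin, 3 of 7 after TNFα and 3 of 11 after NaCl for 2 h, and 0 were called down, with all genes called up at 5.72%, 5.25% and 5.24% and down at 6.28%, 5.72% and 4.69%. Egr1, an immediate early factor, read 4.94 and 4.48 after anisomycin (mean 4.71 ± 0.33), and Myc read 3.33 and 1.06 after TNFα (mean 2.19 ± 1.60). Nfkb1, a subunit of NF-kappaB, read 1.42 and 0.82 after TNFα (mean 1.12 ± 0.42), and Atf3, a stress induced ATF factor, 1.34 and 0.99 after NaCl (mean 1.16 ± 0.25). List medians were 0.12, 0.08 and 0.09, against at most 0.01 over all genes. In this and the other lists, a gene counted as measured only with at least 1 unmarked spot on both arrays of a group. The array held 13 regulators, 16 partners and effectors, 9 other growth arrest genes, 13 p53 targets and 11 NF-kappaB targets.

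Of partners and effectors of Gadd45 proteins, 0 of 12 were called after anisomycin, 1 of 11 after TNFα (down) and 1 of 14 after NaCl for 2 h (up), where 12.0%, 11.0% and 9.92% of all genes were called in either direction. The replication clamp Pcna read 1.18 and 0.85 after NaCl (mean 1.01 ± 0.24), and the mitotic kinase Cdc2a, now Cdk1, -0.31 and -0.37 after TNFα (mean -0.34 ± 0.05). Of the other growth arrest genes, 2 of 6, 2 of 6 and 1 of 6 were called up and 0 down. The largest were Btg2, 4.35 and 5.26 after anisomycin (mean 4.80 ± 0.64), and Btg1, 1.94 and 1.65 after TNFα (mean 1.80 ± 0.21), both antiproliferative genes.

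Of p53 targets, 3 of 8 were called up after anisomycin with 1 down, 3 of 7 up after TNFα and 1 of 11 up after NaCl for 2 h. In these 3 comparisons 5.72%, 5.25% and 5.24% of all genes were called up and 6.28%, 5.72% and 4.69% down. Besides Btg2 the largest were the kinase Plk3 (2.91 and 2.16 after anisomycin) and the proapoptotic Pmaip1 (1.86 and 1.82 after TNFα), and the stress sensor Sesn1 was down (-0.77 and -1.05 after anisomycin). Of the 11 NF-kappaB targets on the array only 5 were measured, and 1 of 5, 4 of 5 and 1 of 5 were called up and 0 down. After TNFα these were the feedback inhibitor Tnfaip3 (5.69 and 4.98), the adhesion molecules Vcam1 (2.78 and 0.75) and Icam1 (0.73 and 0.29) and the chemokine Cxcl2 (2.16 and 0.95), where Gadd45b read 1.90 and 1.54. Between p38α-/- and wild type MEFs after NaCl for 2 h, the comparison in which Gadd45g stood apart, 0.261% of all genes were called up and 0.436% down. In the 5 lists, calls were 0 of 11 regulators, 1 of 13 partners (up), 1 of 5 growth arrest genes (down), 0 of 9 p53 targets and 0 of 5 NF-kappaB targets.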

How the data were processed

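The authors scanned 30 two-colour Agilent arrays with Feature Extraction (8.1.1.1 in the file headers, 9.1 in the submitters' processing notes) and deposited background and processed intensities with a log10 ratio of processed Cy5 over Cy3, spatially detrended, without local background subtraction, and dye-normalized by linear and LOWESS steps. Dyes were not swapped. The authors also deposited a table of log2 values per probe, normalized by them, in the same direction (r with the scanner ratios 0.785 to 0.952, column medians -0.06 to 0.03). Intensities are analogue signals, and the number of arrays limits the precision.

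Ratios were converted to log2. Control spots were dropped, as were spots with an outlier mark in Cy3 or Cy5, and the rest were averaged per probe and probes (33453 named) per gene (21689). limma 3.58.1 (R 4.3.3) fitted 15 group means to 30 arrays with moderated variances, and 48 contrasts were adjusted by Benjamini-Hochberg over genes measured on all arrays compared. Tables, intervals and figures were made in Python 3.11.15 (matplotlib 3.10.9, scipy 1.17.1, pandas 2.3.3, numpy 2.4.6). The fit was tested on simulated data. Members and lists were chosen with earlier results of these data known. The lists were pathway genes, with values for the 4 genes per list of largest absolute mean among those called under anisomycin, TNFα or NaCl for 2 h in wild type MEFs. The 5 genes most like each member were ranked by Pearson r of group means.

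Replicate numbers came from sample titles. Deviations of same-numbered arrays correlated in all 55 wild type pairs (0.133 to 0.645) and all 6 p38α-/- pairs (0.151 to 0.447). In wild type MEFs the replicate number and the scan day are the same split, and the p38α-/- replicates also lay on different days. Pairing of the experiments and an effect of the scan day therefore cannot be told apart. The main fit took no block, and a fit with the number as a block was an alternative. Other alternatives were normexp background with loess, the authors' table, marked spots kept, probes well above background, the brightest probe, each probe, the scan day, wild type arrays alone, array weights, and each array left out, and after the data were seen the same with marked spots kept.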

Additional observations from a re-analysis of the deposited data

Results flagged for a closer look

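Gadd45g after NaCl for 2 h differed between genotypes by the model's own tests, with spots marked as outliers kept. It was higher in p38α-/- than in wild type MEFs by 1.10 (log2), and its induction over the unstressed state was greater by 1.18. The values by array were 1.03 and 1.61 in the knockout and 0.20 and 0.25 in wild type MEFs. One array of each pair carried a marked spot, and untreated knockout arrays, both marked, read -0.13 and -0.03. Without replicate 2 of the knockout after NaCl the 2 differences were 0.80 and 0.88, and both calls were lost. That array had the lowest median signals of the series (832 in Cy5 and 846 in Cy3). It also had the lowest share of spots well above background in Cy5 (81.1%). The part of the spot marks, of that array's signal and of the scan day in these differences was not tested beyond the values given with them.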

How the results depend on the processing

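Counts of Gadd45 calls depended mainly on the spots marked as outliers. With them left out, 13 of 21 measured comparisons with the pool were called, against 22 of 45 with them kept and 27 of 45 in the authors' table. Among all genes, 7.62% to 26.6% were called per pool comparison with them left out and 13.0% to 41.4% with them kept. That share is not given here for the authors' table. Gadd45b had 12 of these calls under both spot rules, and Gadd45a had 1 and 7. Gadd45g, measured only with marked spots kept, had 3. Calls between stressed genotypes were 0, 1 and 1, and calls of differences of induction 0, 1 and 1, in the same order. With each array left out in turn, calls against the pool ranged from 12 to 16, between stressed genotypes from 0 to 1, between NaCl times from 3 to 4 and against the unstressed group of the same arm from 4 to 5, and the other families stayed at 0. With marked spots kept these ranges were 19 to 23, 0 to 2, 3 to 4 and 5 to 8, with 0 to 2 for differences of induction. The replicate block, with marked spots kept, called 2 of 9 comparisons between stressed genotypes, 2 of 24 differences of induction and 1 of 9 comparisons between stresses at 45 min. It turned 7 results into calls and ended none (3 and none with marked spots left out). With marked spots kept, the scan day called 3 of 24 differences of induction and 1 of 9 comparisons between stresses at 45 min. Array weights called 0 of 24 differences of induction. With marked spots left out, these weights were equal for the 2 arrays of each group, so they did not rank arrays within a group. The cause of these changes in calls was not tested. For the block, the scan day, array weights and each array left out, the share of all genes called is not given here. No called value changed sign under any alternative run. Keeping marked spots moved the median of all genes in the difference of NaCl induction between genotypes from -0.03 to 0.07. With 2 arrays a group and 1 control pool, the number of arrays limits which differences could pass.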
